A study of Mus musculus with 8 samples.

Results

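The nuclear-encoded subunits of the oxidative phosphorylation complexes were measured in the hippocampus of adult male Muta Mouse after oral benzo[a]pyrene (BaP). BaP is a polycyclic aromatic hydrocarbon that is converted to DNA-binding metabolites. A gene was taken as a member by its symbol alone: every *Nduf* gene except the *Ndufaf* assembly factors, every *Uqcr* gene, *Cox4* to *Cox8*, every *Atp5* gene, *Sdha*, *Sdhb*, *Sdhc*, *Sdhd* and *Cyc1*. On the array, 86 of the 20660 named genes were members, all protein coding. They comprised 38 subunits of complex I, 4 of complex II, 9 of complex III, 18 of complex IV and 17 of complex V. Another 22 RefSeq symbols of the rule, mostly pseudogenes, were not matched to a probe, and a probe could also bind transcripts of such near-identical copies.

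BaP-exposed mice were gavaged on 3 days with BaP in olive oil, at 70 mg/kg bw each day, and control mice belonged to the vehicle group. The hippocampus was taken 24 hr after the final gavage. All mice were males of 9 weeks of age of the Muta Mouse strain, which carries a bacterial *lacZ* reporter transgene for mutation assays, in control and BaP-exposed mice alike. Each group had 5 animals, and 4 per group were hybridized singly to 2-color Agilent arrays on 1 slide. The hippocampal RNA was labeled with Cy5 and a universal mouse reference RNA with Cy3, with no dye swap. All values below are log2 ratios of the hippocampal signal to the reference signal, and a fold change is the difference between the group means of these ratios. For 4 arrays, all in the second row of the slide (BaP mice 3 and 4, control mice 3 and 4), the sample title and the source name give opposite groups. The titles were used here. The animal numbers are part of the titles and do not decide between the readings, since each group holds numbers 1 to 4 under both. With the other reading 21 of 38 named members with a value changed the sign of their fold change. The mean of 5 erythroid markers, such as the globin genes *Hba-a1* and *Hbb-bs*, was 3.76 and 3.54 in control mice 1 and 2 and 2.73 and 2.60 in BaP-exposed mice 1 and 2, whose labels agree. By title it was 3.73 and 3.66 in control mice 3 and 4 and 2.82 and 2.88 in BaP-exposed mice 3 and 4, so the disputed arrays fell on the same sides as the undisputed ones. With groups set by the source names, 0 probes passed the threshold used below in place of 3, and 4.39% in place of 8.76% of all tested probes had an unadjusted p of 0.05 or less. These values were not used to set the groups. Of the 5 erythroid markers, 2 were among the 3 probes that passed by title, and the marker lists were chosen with earlier results known. The values are therefore no independent support for the titles.

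The share of spots well above background ran from 56.6% to 67.4% per array, and outlier spots numbered 1483 for control mouse 1 against 310 to 371 for the other mice. The arrays correlated with each other at 0.969 to 0.990 across probes, which are not independent replicates. All 8 listed markers of hippocampal neurons, such as *Prox1* of the dentate gyrus and *Neurod6* of pyramidal cells, were above the reference in control mice. Choroid plexus markers were also present, and their level differed widely among mice. In bulk RNA, fewer cells of a type and less RNA per cell cannot be told apart.

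Oxidative phosphorylation takes place in the inner mitochondrial membrane. Complexes I and II pass electrons from NADH and succinate to ubiquinone, complex III passes them on to cytochrome c, complex IV reduces oxygen, and complex V uses the resulting proton gradient to make ATP. Most subunits are encoded in the nucleus and a few in mitochondrial DNA. The catalytic core subunits carry the redox centers or the nucleotide sites, while many small accessory subunits hold the complexes together. Several complex IV subunits exist as a common form and a form restricted to muscle, testis or other tissues. Neurons rely on this pathway for most of their ATP.

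Nearly all members were detected in these samples. All but *Cox8c*, a testis form of the complex IV subunit 8, were well above background on all 8 arrays, and 85 genes were tested. In control mice, 80 of the 85 had a mean above 0, so above the reference RNA, against 8195 of 15085 named genes, each also represented by its brightest Cy5 probe. The same dye always carried the hippocampal RNA, so the share of this offset that is due to dye and the share due to the tissue cannot be told apart. The 5 members with a control mean below 0 were *Ndufab1* (-1.98), the mitochondrial acyl carrier protein, *Cox6a2* (-1.81), *Cox7a1* (-1.04), *Cox4i2* (-0.28) and *Ndufa6* (-0.03).

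No member passed the threshold. With limma's moderated statistic and p-values adjusted by Benjamini-Hochberg over every tested probe, 0 of 85 members reached both an adjusted p of 0.05 and 1.5-fold. Over all tested probes 3 passed, or 0.0092%, so a count of 0 among 85 is what this rate would give. The lowest adjusted p of a member was 0.54 (limma). At an unadjusted p of 0.05, 3 members (*Atp5k*, *Cox7a2* and *Uqcrh*) were lower after BaP exposure and 0 higher, where 4.23% of all tested probes were lower and 4.53% higher. The groups did not overlap for 3 members, with every BaP-exposed mouse below every control mouse (*Atp5j2*, *Cox7a2* and *Uqcrh*), and for 0 members in the other direction. Over all tested probes 2.54% were lower without overlap and 2.52% higher. The 3 members amount to 3.53% of those tested, below the share of all tested probes in each case when both directions are added.

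The intervals given here hold for the processing as reported and for groups set by the titles. For 80 of 85 members, the 95% confidence interval of the fold change from limma lay within 1.5-fold in both directions, against 88.8% of all tested probes. The members were bright, with a median log2 Cy5 signal of 14.61 against 8.44 over all tested probes. Of the 85, 72 were brighter than 90% of tested probes. The part of brightness in the width of the intervals was not tested. The 5 exceptions were *Cox8b*, *Cox6b2*, *Cox7a1*, *Cox6a2* and *Ndufa4*. The size of the log2 fold change was under 0.1 for 61 of 85 members, and its median over the members was 0.07, against 0.09 over all tested probes. The median standard error (SE) of a member was 0.09.

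**Figure D1:**
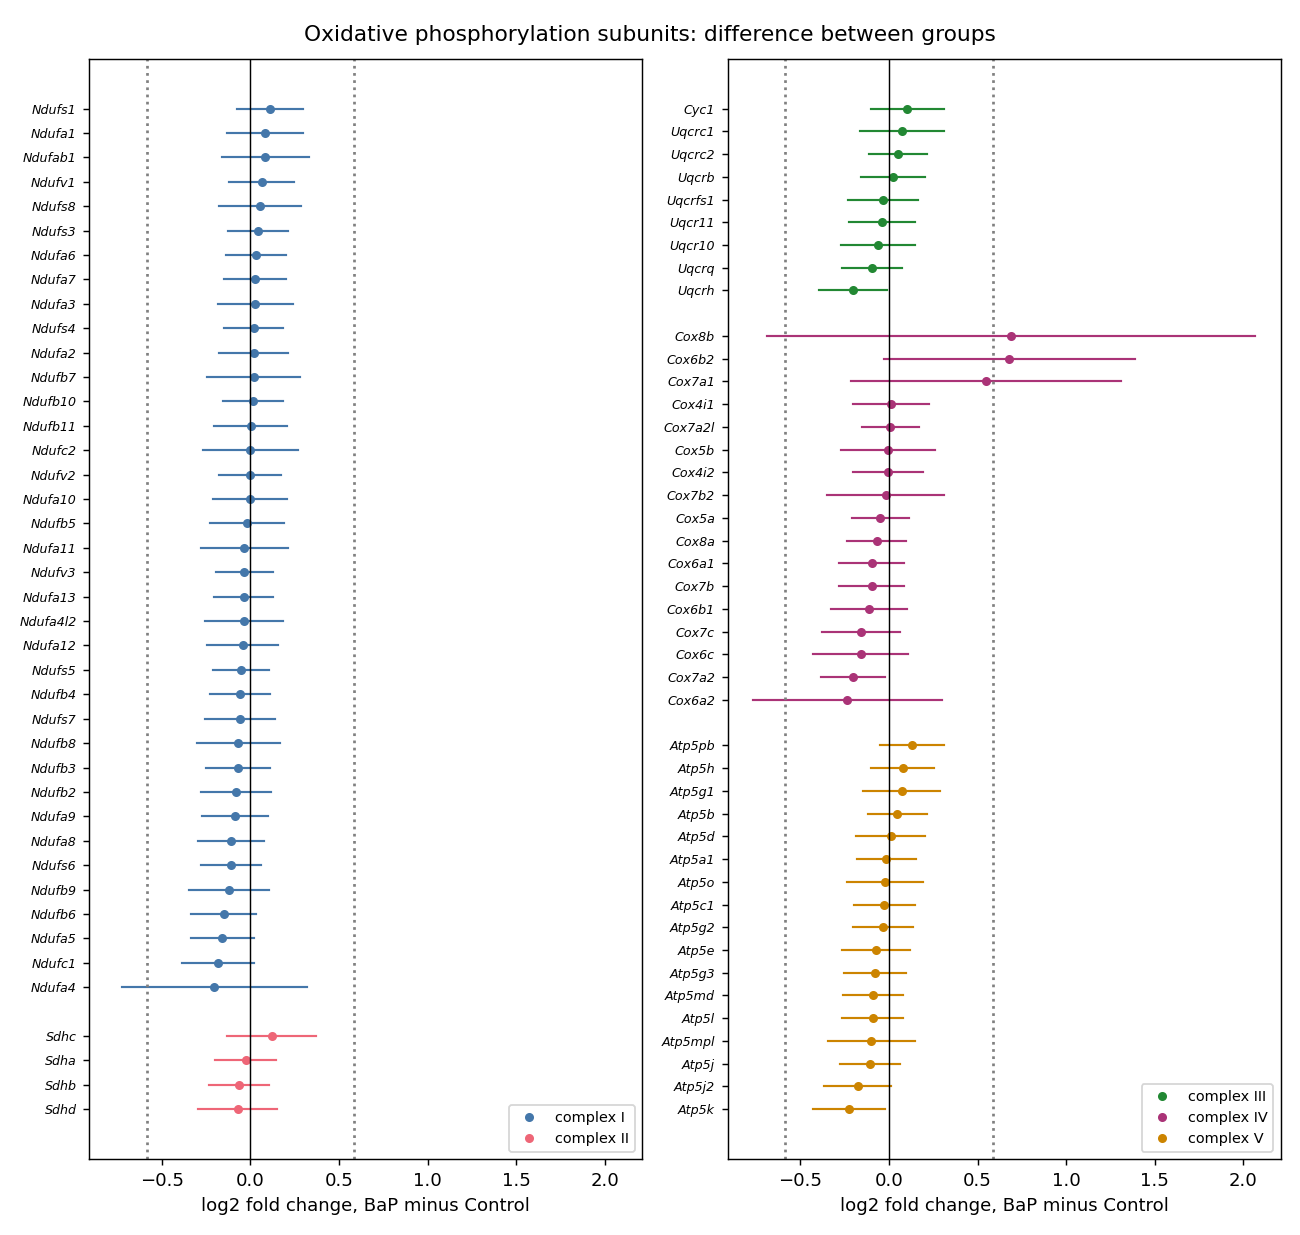
Log2 fold change of BaP-exposed over control mice (x axis) for 84 of the 85 tested members, with 95% confidence intervals from limma and the dotted lines at 1.5-fold in either direction. The intervals of 79 of these members stay inside the dotted lines, and the 3 highest points, *Cox8b*, *Cox6b2* and *Cox7a1*, have the widest intervals.

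Of the 85 members, 55 had a negative and 30 a positive log2 fold change, with a median of -0.03. Over all tested probes 51.2% were negative and the median was 0.00. Per mouse, the median over the members of the ratios centered on each gene was -0.01, -0.03, 0.07 and 0.06 in control mice 1 to 4 and 0.02, -0.03, -0.05 and 0.00 in BaP-exposed mice 1 to 4. The groups overlapped, and the difference of their means was -0.04 with a pooled SD of 0.04 between mice (n = 4 per group). The mean of the 8 neuron markers was 5.68, 5.86, 5.99 and 6.02 in control mice 1 to 4 and 5.90, 5.78, 5.61 and 5.88 in BaP-exposed mice 1 to 4, a difference of -0.10, and the median r of the members with this list was 0.489. The part of the neuron share in the shift of the members was not tested. The sign of this shift was not stable: the median of the members was 0.01 in the first slide row, whose labels are undisputed, and -0.09 in the second. It was 0.04 when the source names set the groups.

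The way of scaling also set the sign. When each array was only centered on its median, without the intensity-dependent loess step, all tested probes shifted to a median of 0.17 and the members to 0.24, with 85 of 85 above 0. Relative to the shift of all probes, 69 members were then above and 16 below, where 33 were above and 52 below as reported. At an unadjusted p of 0.05, 18 members were higher and 0 lower under this centering, against 0 higher and 3 lower as reported, and 0 passed the adjusted threshold. Of all tested probes, 18.6% had such a p under this centering. With the authors' log ratios the median was 0.01, with 46 members above 0 and 39 below.

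**Figure D2:**
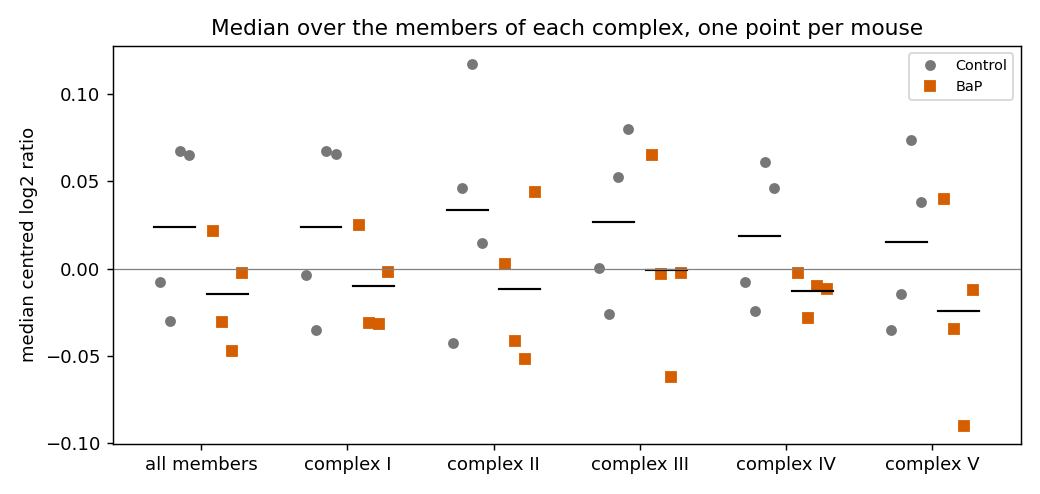
Median over the members of each complex of the log2 ratio centered on each gene (y axis, log2 units), with 1 point per mouse and a line at the group mean. Control and BaP-exposed mice overlap in every complex.

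The 5 complexes had similar medians. The median log2 fold change was -0.03 for complex I (23 of 38 members negative), -0.05 for complex II (3 of 4), -0.03 for complex III (5 of 9), -0.05 for complex IV (12 of 17) and -0.04 for complex V (12 of 17). All 5 were positive when arrays were centered without loess and when the source names set the groups. In complex IV without its 6 tissue-restricted forms, 9 of 11 members were negative, with a median of -0.10. This subset was drawn with the values known. Per mouse, its centered median was -0.04 to 0.12 in control mice and -0.08 to 0.00 in BaP-exposed mice, so the groups overlapped.

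The genes listed as core subunits lay close to 0. For complex IV the list holds *Cox5a*, which carries no redox center. Of the 16 listed, 8 were positive and 8 negative, with a median of 0.02, a range from -0.07 to 0.12 and all 16 intervals within 1.5-fold. Of the other 69 members, 47 were negative, with a median of -0.04. In complex I, the Fe-S subunit *Ndufs1* had a log2 fold change of 0.11 (SE 0.08), *Ndufs3* 0.04, *Ndufs7* -0.06, *Ndufs8* 0.05, the NADH-binding flavoprotein *Ndufv1* 0.06 and *Ndufv2* 0.00. With groups set by the source names, *Ndufs1* (-0.06), *Ndufs3* (-0.0067), *Ndufv1* (-0.05) and *Ndufv2* (0.04) had the opposite sign.

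The largest differences in complex I were those of accessory subunits. *Ndufc1* had a mean of 1.26 ± 0.10 in control and 1.08 ± 0.13 in BaP-exposed mice (SD, n = 4 each), a log2 fold change of -0.18 (SE 0.09, limma adjusted p = 0.60). *Ndufa5* was 1.88 ± 0.02 in control and 1.72 ± 0.11 in BaP-exposed mice (SD, n = 4 each), with BaP mouse 1 at 1.88 inside the control range of 1.86 to 1.90 and BaP mice 2, 3 and 4 between 1.63 and 1.71. A second, dimmer probe of *Ndufa5* had a log2 fold change of -0.07 (SE 0.09). Both turned when the source names set the groups, *Ndufc1* to 0.09 and *Ndufa5* to 0.08.

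*Ndufa4*, first described in complex I and now also counted as a subunit of complex IV, rested on 1 mouse. It was 1.25, 1.28, 1.24 and 1.32 in control mice 1 to 4 and 1.37, 0.19, 1.33 and 1.38 in BaP-exposed mice 1 to 4. BaP mouse 2 was far below all others, while the other 3 were above all control mice. In that mouse the log2 Cy5 signal, less the median of its array, was 6.32 where the 7 other arrays had 6.98 to 7.59, while the Cy3 signal of 7.27 was inside the range of the other arrays (6.90 to 7.30). The log2 fold change was -0.20 (SE 0.24, limma adjusted p = 0.82). Its paralog *Ndufa4l2*, known as a gene induced by low oxygen, had a log2 fold change of -0.04 (SE 0.10).

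Succinate dehydrogenase, complex II, is also an enzyme of the tricarboxylic acid cycle. Its flavoprotein *Sdha* had a log2 fold change of -0.03, the Fe-S subunit *Sdhb* -0.07, and the membrane anchors *Sdhc* and *Sdhd* 0.12 and -0.07. The SEs were 0.08 to 0.11, and all 4 intervals lay within 1.5-fold. Brightest and dimmer probes of *Sdhb* had opposite signs (-0.07 and 0.08). *Sdha*, *Sdhb* and *Sdhd* turned to 0.02, 0.02 and 0.11 when the source names set the groups.

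In complex III, *Uqcrh*, the acidic hinge subunit beside cytochrome c1, was lower in every BaP-exposed mouse. It was 1.36, 1.38, 1.41 and 1.35 in control mice 1 to 4 and 1.22, 0.97, 1.22 and 1.29 in BaP-exposed mice 1 to 4. The groups did not overlap, and BaP mouse 2 was the lowest. The log2 fold change was -0.20 (SE 0.09, 95% interval -0.40 to -0.01, unadjusted p = 0.041, limma adjusted p = 0.56), a fold of 1.15. The exact permutation test gave p = 0.0286 (2-sided), the smallest that 4 mice against 4 allow. A second, dimmer probe had a log2 fold change of -0.22 (SE 0.09) and also no overlap of the groups. Of the other members of the complex, *Cyc1*, cytochrome c1, had a log2 fold change of 0.10 (SE 0.09), the Rieske protein *Uqcrfs1* -0.03 and *Uqcrq* -0.10. A dimmer probe of *Uqcrq* was at 0.09, and with groups set by the source names the brighter one turned to 0.03.

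In complex IV, *Cox7a2*, the common form of subunit 7a, was also lower without overlap. It was 0.997, 1.05, 1.07 and 1.18 in control mice 1 to 4 and 0.96, 0.82, 0.76 and 0.94 in BaP-exposed mice 1 to 4. BaP mouse 1 lay just under control mouse 1. The log2 fold change was -0.20 (SE 0.08, 95% interval -0.38 to -0.02, unadjusted p = 0.032, limma adjusted p = 0.54), a fold of 1.15, and it was measured by 1 probe. The other common subunits had log2 fold changes of -0.16 for both *Cox6c* and *Cox7c*, -0.11 for *Cox6b1*, -0.10 for both *Cox6a1* and *Cox7b*, -0.07 for *Cox8a*, -0.05 for *Cox5a*, 0.00 for *Cox5b* and 0.01 for *Cox4i1*, all with overlapping groups. With groups set by the source names, *Cox6b1* turned to 0.15 and *Cox8a* to 0.0033, and *Cox6c*, *Cox7c* and *Cox5b* also turned positive. In the first slide row alone *Cox6b1* was at 0.04. *Cox7a2l*, a related protein that joins complexes III and IV, had a log2 fold change of 0.01 (SE 0.07).

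In complex V, the 2 lowest members belong to the membrane-embedded Fo part. *Atp5j2*, the f subunit, was 1.04, 1.10, 1.07 and 1.12 in control mice 1 to 4 and 1.01, 0.78, 0.80 and 1.03 in BaP-exposed mice 1 to 4. The groups did not overlap, but BaP mice 1 and 4 lay just below the lowest control mouse. The log2 fold change was -0.18 (SE 0.09, unadjusted p = 0.064, limma adjusted p = 0.59), and a dimmer probe, at -0.14, had overlapping groups.

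*Atp5k*, the e subunit, which takes part in dimer formation of the enzyme, was 1.48, 1.61, 1.74 and 1.74 in control mice 1 to 4 and 1.52, 1.31, 1.36 and 1.49 in BaP-exposed mice 1 to 4. Control mouse 1 lay below BaP mice 1 and 4, so the groups overlapped. The log2 fold change was -0.22 (SE 0.09, unadjusted p = 0.034, limma adjusted p = 0.54), and that of a dimmer probe -0.13 (SE 0.10).

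The catalytic alpha and beta subunits *Atp5a1* and *Atp5b* had log2 fold changes of -0.01 and 0.05 (SE 0.08 and 0.07). The 3 genes of the c subunit, whose mature protein forms the rotor ring, were at 0.07 for *Atp5g1*, -0.04 for *Atp5g2* and -0.08 for *Atp5g3*. With groups set by the source names, *Atp5a1* and *Atp5g2* both turned to 0.02. *Atp5pb*, the b subunit of the stalk, had the most positive value of the complex, 0.13 (SE 0.08), and 0.08 on a dimmer probe.

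In the first slide row alone, where no label is disputed, the 4 genes had log2 fold changes of -0.28 (*Uqcrh*), -0.13 (*Cox7a2*), -0.17 (*Atp5j2*) and -0.13 (*Atp5k*) from 2 mice per group. The sign of the first 3 is fixed by the lack of overlap over all mice and is no support. With groups set by the source names, *Uqcrh* was at -0.08, while *Cox7a2* (0.07), *Atp5j2* (0.0029) and *Atp5k* (0.09) had the opposite sign.

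**Figure D3:**
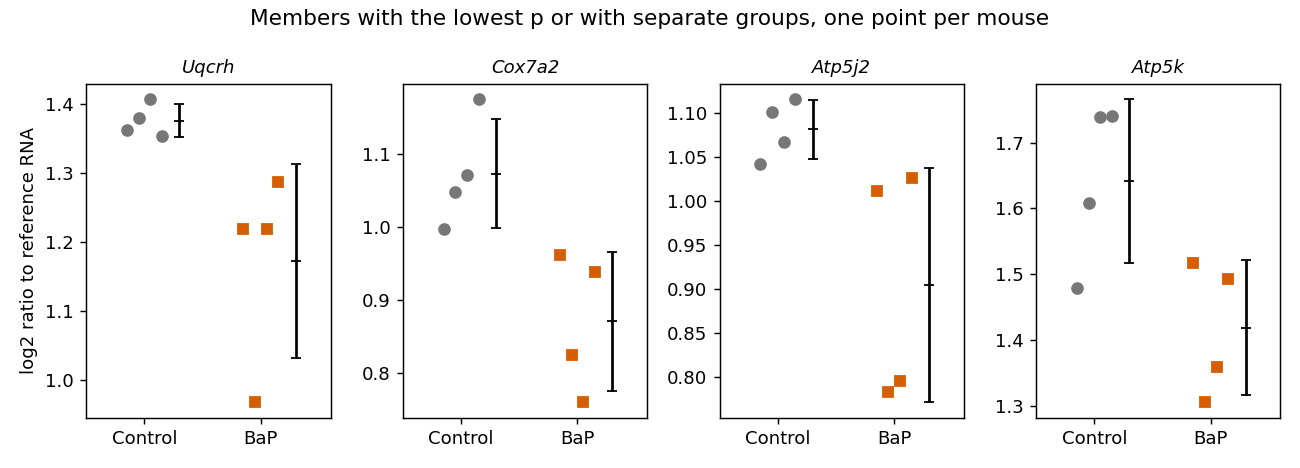
Log2 ratio to the reference RNA (y axis) of *Uqcrh*, *Cox7a2*, *Atp5j2* and *Atp5k* in each mouse, with the group mean and SD as a bar beside the points (n = 4 per group, axes not starting at 0). BaP-exposed mice lie below all control mice for the first 3 genes, and control mouse 1 overlaps with the BaP-exposed mice for *Atp5k*.

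These 4 values depended on the processing. The shares of all tested probes that passed an unadjusted p of 0.05 and that did not overlap were 9.28% and 5.27% with the authors' log ratios, 8.11% and 5.09% with the scanner's processed signals and 7.88% and 4.76% with the Cy5 channel alone. With the authors' log ratios 1 of the 85 members, *Cox7a2*, passed an unadjusted p of 0.05 and 1, *Uqcrh*, had groups without overlap. With the scanner's processed signals the counts were 0 and 1. With the Cy5 channel alone 0 members passed, and the 1 member without overlap was *Uqcrc2*, which was higher in BaP-exposed mice. Without control mouse 4, BaP mouse 2 or BaP mouse 3, 0 members passed an unadjusted p of 0.05.

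Promoters of 69 members were found in the RefSeq table of GRCm38.p6, from 250 bases before to 50 after the start of transcription, 74 promoters in all. NRF1, ETS factors such as GABPA, YY1 and CREB are known regulators of respiratory genes. The letters GCGCANGCG (NRF1) were in 28.4% of the members' promoters and 6.25% of all 32851 promoters, and CCGGAAG (ETS) in 23.0% and 8.86%. AAGATGGCG (YY1) was in 9.46% and 1.40%, and TGACGTCA (CRE) in 5.41% and 1.79%. Both strands were searched. GCGTG, the core of the sites of the aryl hydrocarbon receptor that BaP binds, was in 52.7% of members' and 32.4% of all promoters. The longer TNGCGTG, which contains that core, was in 12.2% and 5.07%. The median GC content was 57.5% for members and 52.7% for all promoters, and its part in these shares was not tested. The median log2 fold change was -0.05 for the 20 members with the NRF1 letters and -0.03 for the 49 without, -0.07 for the 17 with the ETS letters and -0.03 for the 52 without. It was -0.10 for the 7 with the YY1 letters and -0.03 for the 62 without, and -0.03 for the 4 with the CRE letters and -0.04 for the 65 without. With the receptor core it was -0.03 for 37 members and -0.04 for the 32 without, and with its longer form -0.01 for 8 members and -0.04 for the 61 without.

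Of the 4 lower members, 3 held letters of NRF1, ETS or YY1, and all 4 held GCGTG on 1 of the strands. These 3 are shown with *Cox8b*, the member that varied most between mice and holds none of the letters searched. The 250 bases before the start are given 5′ to 3′ on the strand of the gene, with capitals for the NRF1 letters, which overlap on both strands in *Atp5k*, and for the ETS letters in *Uqcrh*, here on the opposite strand. The *Atp5k* stretch is chr5:108434400-108434649, that of *Uqcrh* chr4:116075071-116075320 and that of *Cox8b* chr7:140900447-140900696, all on the minus strand.
Atp5k: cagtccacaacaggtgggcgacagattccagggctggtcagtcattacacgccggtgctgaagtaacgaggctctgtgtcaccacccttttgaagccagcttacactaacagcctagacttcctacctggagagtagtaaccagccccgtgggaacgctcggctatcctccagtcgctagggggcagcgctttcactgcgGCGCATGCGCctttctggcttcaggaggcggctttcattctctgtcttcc
Uqcrh: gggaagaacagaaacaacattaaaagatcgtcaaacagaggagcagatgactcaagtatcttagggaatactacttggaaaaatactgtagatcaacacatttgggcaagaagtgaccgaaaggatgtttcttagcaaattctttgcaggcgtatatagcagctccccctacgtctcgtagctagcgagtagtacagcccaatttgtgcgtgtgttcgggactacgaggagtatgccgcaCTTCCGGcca
Cox8b: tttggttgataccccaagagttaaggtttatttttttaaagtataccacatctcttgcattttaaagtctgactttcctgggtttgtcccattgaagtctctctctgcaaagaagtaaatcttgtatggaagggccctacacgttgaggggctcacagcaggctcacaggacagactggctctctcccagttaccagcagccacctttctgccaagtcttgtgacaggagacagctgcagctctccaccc

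In *Atp5j2* the YY1 letters began at base 24 of the transcript, at chr5:145191501-145191527 on the minus strand with the 9 bases on either side.
Atp5j2: caggacttcAAGATGGCGtcactcggt
The promoter of *Cox7a2* held none of the letters of NRF1, ETS, YY1 or CRE, as was the case for 30 of the 69 members.

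The largest fold changes of the whole set were those of tissue-restricted forms of complex IV, and they came with a spread between mice that few other members had. The within-group SD was under 0.3 for all members but 5, *Cox8b* (1.13), *Cox7a1* (0.62), *Cox6b2* (0.57), *Cox6a2* (0.42) and *Ndufa4* (0.41), and its median was 0.10. *Cox8b*, the heart and skeletal muscle form of subunit 8, was 3.61, 2.48, 4.65 and 3.19 in control mice 1 to 4 and 2.34, 5.01, 5.25 and 4.10 in BaP-exposed mice 1 to 4, a range of 7.50-fold. The lowest and the 2 highest values were all from BaP-exposed mice. The log2 fold change was 0.69 (SE 0.62, 95% interval -0.69 to 2.07, limma adjusted p = 0.76). Without BaP mouse 1 it was 1.30 (unadjusted p = 0.0176, limma adjusted p = 0.38).

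*Cox7a1*, the muscle form of subunit 7a, was -0.80, -1.30, -0.83 and -1.22 in control mice 1 to 4 and -1.64, 0.28, -0.07 and -0.54 in BaP-exposed mice 1 to 4. Its log2 fold change was 0.55 (SE 0.34, limma adjusted p = 0.65). *Cox6b2*, the testis form of subunit 6b, was 1.36, 0.57, 1.52 and 0.60 in control mice 1 to 4 and 0.85, 1.87, 2.39 and 1.66 in BaP-exposed mice 1 to 4. Its log2 fold change was 0.68 (SE 0.32, limma adjusted p = 0.58). For both genes BaP mice 2, 3 and 4 lay above all control mice, and BaP mouse 1 lay inside or below the control range. Without BaP mouse 1 the groups of both separated, with log2 fold changes of 0.93 for *Cox7a1* and 0.96 for *Cox6b2* (limma adjusted p = 0.25 and 0.29). In the first slide row alone the log2 fold changes were 0.63 for *Cox8b*, 0.38 for *Cox7a1* and 0.39 for *Cox6b2*, and with groups set by the source names all 3 turned, to -0.06, -0.17 and -0.28.

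The choroid plexus markers had a similar, not identical, order of mice. The choroid plexus is the epithelium that secretes cerebrospinal fluid and lies beside the hippocampus. The mean log2 ratio of its 7 listed markers (*Ttr*, *Kl*, *Folr1*, *Kcnj13*, *Clic6*, *Otx2* and *Sostdc1*) was 4.71, 3.71, 5.08 and 3.33 in control mice 1 to 4 and 2.76, 5.65, 5.98 and 5.19 in BaP-exposed mice 1 to 4. All 7 had a positive log2 fold change, from 0.04 to 1.37, and 0 of 7 passed an unadjusted p of 0.05. Over the 8 mice, *Cox8b* correlated with that mean at a Pearson r of 0.942 (exact permutation p = 0.000794) and a Spearman rho of 0.952 (exact permutation p = 0.00114). *Cox7a1* had an r of 0.925 (exact permutation p = 0.00119) and a rho of 0.929 (exact permutation p = 0.00223), and *Cox6b2* an r of 0.924 (exact permutation p = 0.00164) and a rho of 0.905 (exact permutation p = 0.00456).

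These relations were noticed in the data and are 3 of 1020 computed, of 85 members with 12 marker lists. None of the 1020 passed the Benjamini-Hochberg adjustment, where these 3 had adjusted p-values of 0.135, 0.173 and 0.209 for r (exact permutation tests) and 0.291, 0.325 and 0.423 for rho. Without control mouse 4 and BaP mouse 1, the mice farthest from the median of the marker mean, r was 0.972 for *Cox8b*, 0.896 for *Cox7a1* and 0.988 for *Cox6b2*. Within groups, the deviations of mice from their group mean correlated at 0.935, 0.924 and 0.952, in the same order. They were the 3 members with a correlation above 0.9 in size with the choroid plexus list. The neuron list had 4 such members, with r up to 0.955, and the oligodendrocyte list 1, at an r of -0.957, and the lowest adjusted p of all 1020 relations was in that list (0.0759, exact permutation test). The other 9 lists had 0 such members. The same genes also moved with other lists: with the endothelium markers r was 0.872 for *Cox6b2*, 0.818 for *Cox8b* and 0.660 for *Cox7a1* (exact permutation tests, adjusted p = 0.420, 0.420 and 0.531), or 0.710, 0.827 and 0.526 without the 2 mice farthest from the median. With the oligodendrocyte markers r was 0.763 for *Cox7a1* (exact permutation test, adjusted p = 0.431), but -0.03 without the 2 farthest mice, so this relation rests on those mice. The part of the choroid plexus in the fold changes of these 3 genes was not tested.

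*Cox6a2* and *Cox4i2* did not follow these markers. *Cox6a2*, the muscle form of subunit 6a, was -1.90, -1.99, -1.46 and -1.91 in control mice 1 to 4 and -2.02, -2.40, -2.49 and -1.28 in BaP-exposed mice 1 to 4. BaP mouse 4 was the highest and BaP mice 2 and 3 the lowest of all mice, and r with the choroid plexus markers was -0.135 (exact permutation p = 0.747, adjusted p = 0.918). *Cox4i2*, the form known from lung, ranged from -0.46 to -0.14, with a log2 fold change of -0.01 (SE 0.09), and 0.00044 with groups set by the source names. *Cox7b2*, a testis form named here beside its relatives, had a log2 fold change of -0.02 (SE 0.15).

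*Cox8b*, *Cox7a1* and *Cox6a2* are typically expressed in striated muscle. Of the muscle markers, *Ckm*, muscle creatine kinase, was not well above background on enough arrays to be tested. The mean of the 5 tested muscle markers was -0.92 to -0.84 in control mice and -1.05 to -0.85 in BaP-exposed mice, and 1 of them, *Myh4*, was above the reference in control mice (0.83). Over the 8 mice, *Cox6a2* correlated with this mean at an r of 0.789 (exact permutation p = 0.0166, adjusted p = 0.420) and a rho of 0.857 (exact permutation p = 0.0107, adjusted p = 0.453), and r was 0.928 without the 2 mice farthest from the median. Among control mice alone its r with the muscle markers was 0.069, and among BaP-exposed mice alone 0.894. *Cox6a2* also had an r of -0.756 with the oligodendrocyte and -0.738 with the ependyma markers (exact permutation tests, adjusted p = 0.431 each), which fell in size to -0.381 and -0.282 without the 2 farthest mice. For *Cox8b*, *Cox7a1* and *Cox6b2* r with the muscle markers was -0.481, -0.494 and -0.495 (exact permutation tests, adjusted p = 0.685, 0.673 and 0.673). The part of muscle RNA in the values of *Cox6a2* was not tested.

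**Figure D4:**
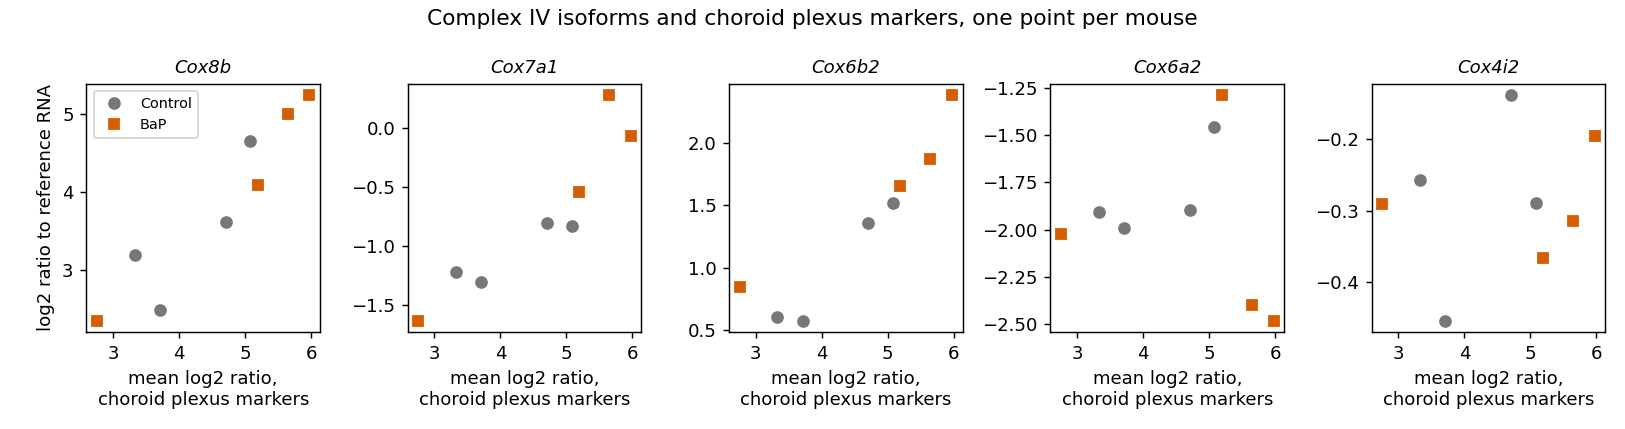
Log2 ratio to the reference RNA (y axis) of 5 complex IV forms against the mean log2 ratio of 7 choroid plexus markers (x axis), with 1 point per mouse (4 control, 4 BaP). *Cox8b*, *Cox7a1* and *Cox6b2* follow the markers across both groups, with r of 0.942, 0.925 and 0.924, while *Cox6a2* and *Cox4i2* do not.

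Of the other genes of the pathway, 0 passed the adjusted threshold in any list. Of 42 tested assembly factors, 20 were higher and 22 lower, with 1 higher and 2 lower at an unadjusted p of 0.05, where 4.53% and 4.23% of all tested probes were higher and lower. The groups did not overlap for 2 higher and 1 lower of the 42, where 2.52% and 2.54% of all tested probes were higher and lower without overlap. *Coa7*, a complex IV assembly factor, was -1.11, -0.97, -1.02 and -1.06 in control mice 1 to 4 and -0.77, -0.65, -0.84 and -0.75 in BaP-exposed mice 1 to 4. All BaP-exposed mice were above all control mice, and the log2 fold change was 0.29 (SE 0.08, unadjusted p = 0.00358, limma adjusted p = 0.48), beyond that of any member outside the restricted forms of complex IV. *Tmem70*, an assembly factor of complex V, was also higher without overlap (0.13, SE 0.07). *Atpaf2*, a chaperone of the alpha subunit of complex V, was lower without overlap (-0.19, SE 0.08). *Ndufaf5*, a complex I assembly factor, had a log2 fold change of -0.26 (SE 0.11), with control mouse 1 missing because its spot was marked as an outlier.

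The tricarboxylic acid cycle, which supplies the electrons, had 13 of 18 tested genes higher and 5 lower, with a median log2 fold change of 0.05 and 0 at an unadjusted p of 0.05. *Dlst*, a subunit of the 2-oxoglutarate dehydrogenase complex, was higher without overlap (0.15, SE 0.08), and *Suclg2* and *Dlat* had log2 fold changes of 0.22 and 0.17 with overlapping groups. Of 13 tested carriers and transporters, 6 were higher and 7 lower. The electron transfer flavoprotein *Etfa* had a log2 fold change of 0.24, the outer membrane channel *Vdac1* -0.20, and *Gpd2*, the mitochondrial glycerol-3-phosphate dehydrogenase, was higher without overlap at 0.14. *Dlst* of the 18 and *Gpd2* of the 13 were the only genes of these lists without overlap. Of all tested probes, 2.52% were higher without overlap.

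Of 16 tested regulators of mitochondrial biogenesis, 7 were higher and 9 lower, with a median of -0.02. *Tfam*, the factor that packages and transcribes mitochondrial DNA, was -0.58, -0.53, -0.48 and -0.46 in control mice 1 to 4 and -0.40, -0.27, -0.37 and -0.45 in BaP-exposed mice 1 to 4. The groups did not overlap, though BaP mouse 4 lay just above control mouse 4, and the log2 fold change was 0.14 (SE 0.08, limma adjusted p = 0.62). No other regulator of the 16 had groups without overlap, and 2.52% of all tested probes were higher without overlap. The coactivator *Ppargc1a* had a log2 fold change of -0.21 (SE 0.16) and the mitochondrial RNA polymerase *Polrmt* -0.15 (SE 0.11), both with overlapping groups. The 13 subunits encoded by mitochondrial DNA were not matched to a probe through a RefSeq accession and were not analysed here.

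**Figure D5:**
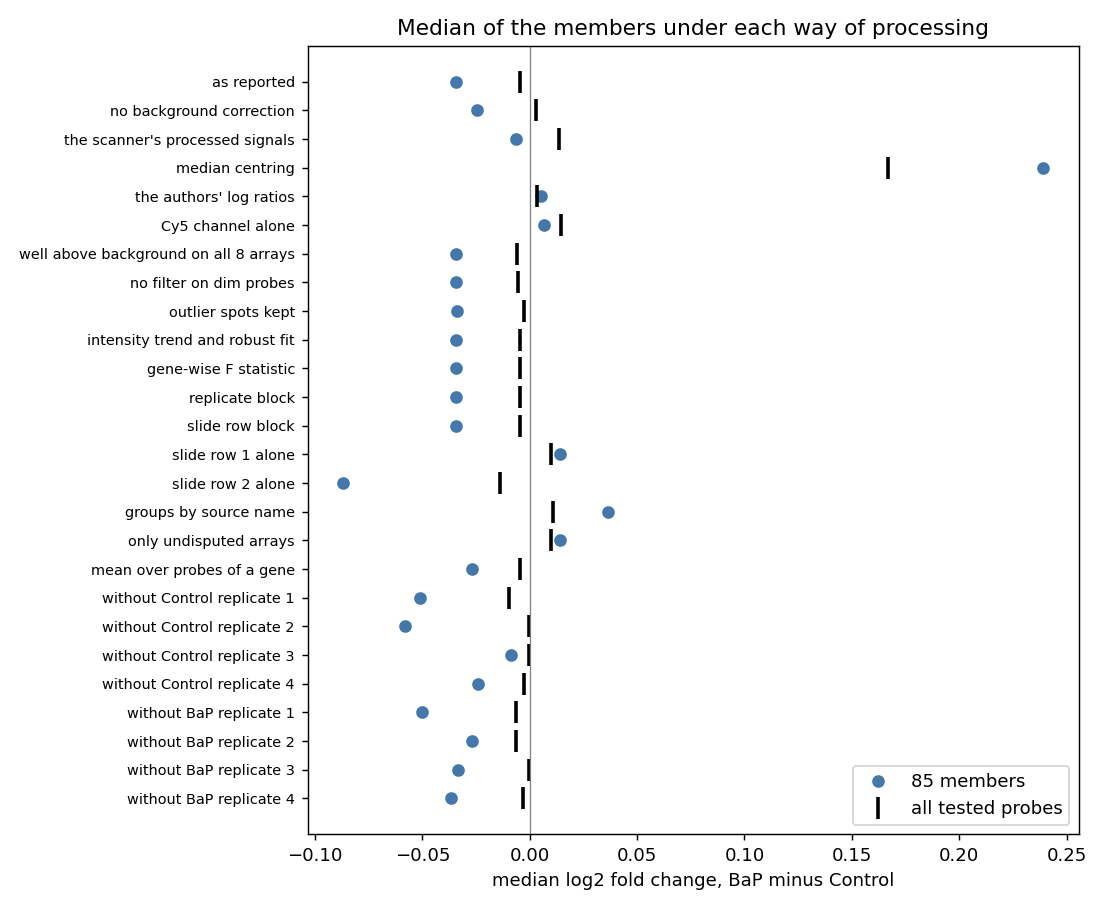
Median log2 fold change of the 85 members (circles) and of all tested probes (bars) on the x axis, for the processing as reported and each alternative on the y axis. The members' median lies between -0.09 and 0.04 except with median centering, where it is 0.24 and that of all probes 0.17.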

How the data were processed

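The authors deposited the Feature Extraction 11.0.1.1 scanner intensity of both channels for each spot, with background levels and outlier marks, and a table of log2 ratios that the methods describe as LOWESS-normalized. The array header names the build mm9. From spot medians, the background was corrected with normexp (offset 50) in limma 3.58.1 (R 4.3.3). Control spots were left out, outlier spots set to missing, ratios normalized by loess within arrays and spots of a probe averaged. The test took the 32597 of 55681 probes whose Cy5 signal was well above background on 4 or more of the 8 arrays, with lmFit and eBayes. Thresholds were a Benjamini-Hochberg adjusted p of 0.05 together with a 1.5-fold difference. The 4 mice of a group were compared by title. A limma p-value sets the difference between the groups against the spread between these samples, moderated over all tested probes.

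Probes were named through RefSeq accessions (27235 of 28685 matched, with a gene table of GRCm38.p6 used for names alone), and the probe with the highest Cy5 signal stood for a gene. Named genes were paired isoforms, core subunits, the 3 largest differences of each complex, members without overlap of the groups and, of each other list, the 2 largest differences and genes without overlap. The members, lists and motifs were chosen with earlier results of these data known, and *Cox7b2* was named after its values were seen. Of the genes this rule names, 1 is kept in counts and medians but is not reported here. Permutation tests were exact and 2-sided (scipy 1.17.1, Python 3.11.15). The fit was tested on simulated data. The RefSeq gene and promoter tables held no protein sequences. Alternatives covered background, scaling, filters, the test, blocks, the labels, the probe of a gene and each mouse left out. The number of arrays limits precision.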

Additional observations from a re-analysis of the deposited data

Results flagged for a closer look

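In 5 of 88 groups of 4 mice examined, for the named members and the medians of the complexes, 1 mouse stood apart from the other 3 by Dixon's criterion. Chance would flag about 1 group in 20, or 4.4 of 88. The widest distance in log2 units was in *Ndufa4*, where BaP mouse 2 had a log2 ratio of 0.19 and the other BaP-exposed mice 1.33 to 1.38 (gap over range 0.956). *Atp5pb* had control mouse 4 at 0.66 with the others at 0.61 (0.957), and *Ndufs1* had control mouse 4 at 0.78 with the others at 0.90 to 0.92 (0.897). *Atp5b* had BaP mouse 4 at 1.42 with the others at 1.53 to 1.54 (0.877), and *Sdha* had BaP mouse 4 at 0.93 with the others at 0.97 (0.858). Outside *Ndufa4*, the distance of the single mouse from the others was small.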

How the results depend on the processing

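No member passed the adjusted threshold under any of the 24 distinct alternatives, and the lowest adjusted p of a named member among them was 0.22. The count of members at an unadjusted p of 0.05, 3 as reported (all lower), was 0 with the scanner's processed signals, the Cy5 channel alone or slide row 1 alone (the undisputed arrays), 1 with the authors' log ratios or an intensity trend with robust fit (*Cox7a2*), 1 with the replicate block (*Cox6b2*, higher, and none of the 3), 3 with the source names (*Uqcrc1*, *Ndufa11* and *Ndufs8*, all higher), 5 without the filter on dim probes or with the gene-wise F statistic, 18 with median centering, and 0 to 7 when each mouse was left out in turn, where 7.42%, 8.23%, 18.6% and 5.31% to 10.7% of all tested probes passed (0 without control mouse 4 or BaP mouse 2 or 3, 1 without control mouse 3, again *Cox6b2*, 6 without BaP mouse 4 and 7 without BaP mouse 1). Of all tested probes, 6.92% passed in slide row 1 alone and 8.57% with the intensity trend and robust fit. The shares were 7.31% with the replicate block and 4.39% with the source names. The replicate numbers did not pair the mice: the deviations of equally numbered mice correlated at -0.354 to 0.031.

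The count of members without overlap, 3 as reported, was 1 with the processed signals or the authors' log ratios (*Uqcrh*), 1 with Cy5 alone (*Uqcrc2*, higher), 3 with median centering (*Uqcrc1*, *Atp5pb* and *Sdhc*, all higher and none of the 3, where 9.22% of all tested probes were higher without overlap), 6 with the source names (*Uqcrc1*, *Ndufa7*, *Atp5c1*, *Ndufa11*, *Atp5d* and *Ndufs8*, all higher and none of the 3, where 2.73% of all tested probes did not overlap), and 3 to 10 when each mouse was left out, where 6.70% to 10.8% of all tested probes did not overlap (8 without control mouse 1, 6 without control mouse 3, 5 without control mouse 4, 10 without BaP mouse 1 and 8 without BaP mouse 4). In slide rows 1 and 2 alone, with 2 mice per group, they were 31 and 42, where 38.4% and 37.1% of all tested probes did not overlap.

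The median log2 fold change of all members and of complexes I to V became 0.24, 0.25, 0.23, 0.24, 0.20 and 0.23 with median centering, which moved all tested probes by 0.17, and 0.0365, 0.0502, 0.0253, 0.0294, 0.00333 and 0.0456 with the source names. In slide row 1, the undisputed arrays, it was 0.0142 for all members, 0.0173 for complex I, 0.0138 for complex II, 0.0142 for complex IV and 0.00752 for complex V. In slide row 2 it was -0.0871 for all members, -0.0764 for complex I, -0.0971 for complex III and -0.116 for complex V. With the Cy5 channel alone it was 0.00660 for all members, 0.0170 for complex I, 0.0236 for complex IV and 0.00570 for complex V, with the authors' log ratios 0.00514 for all members and 0.00607, 0.00881 and 0.00514 for complexes I, III and IV, and with the processed signals 0.00529 for complex I. With each mouse left out it was -0.06 to -0.01 for all members, -0.05 to 0.01 for complex I (above 0 without control mouse 3 or 4), -0.06 to -0.02 for complex II, -0.06 to 0.01 for complex III (above 0 without control mouse 1 or 4), -0.08 to -0.04 for complex IV and -0.06 to -0.02 for complex V. The cause of these moves was not tested.

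Of 912 values of 38 named tested members under the alternatives, 96 had the opposite sign, 24 with median centering, 21 with the source names and the rest with 15 other alternatives, and 22 of the 96 had a reported size over 0.1. The search for members through a gene name column was not run, since the files used here hold none.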
